A study of Mus musculus with 47 samples.

Results

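The genes described here encode proteins that build ribosomes, and they were chosen by symbol from a list of 59 ribosome biogenesis genes arranged in 7 role classes. Of these, 58 were found in the table of 14221 genes by that symbol, and Riok2 was not. Ribosomes are assembled in the nucleolus, where RNA polymerase I (Pol I) transcribes a long precursor of the ribosomal RNAs. Small nucleolar ribonucleoproteins (snoRNPs) of the C/D and H/ACA types modify this precursor, the small subunit processome and a later set of factors cut and fold the small subunit, and other GTPases, helicases and scaffold proteins assemble the large subunit. The demand for these factors rises with cell growth, and the transcription factor Myc is a known activator of many of them.

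Gene expression was measured by bulk sequencing of mRNA from the hypothalamus of 47 male ob/ob mice, which lack functional leptin and are obese, with 1 library per mouse and an age of 11 weeks in the labels. The mice had received a single intracerebroventricular (icv) injection of 3 µg of fibroblast growth factor 1 (FGF1) or of vehicle, and vehicle mice were pair-fed to the intake of FGF1 mice. On Day 1 there were 10 FGF1 mice and 4 vehicle mice, the latter labelled non-diabetic. On Day 5 there were 9 FGF1, 7 non-diabetic vehicle and 7 diabetic vehicle mice. On Day 42 there were 5 FGF1 and 5 non-diabetic vehicle mice. The labels give no diabetic state for FGF1 mice. The paper states that mice not considered diabetic were excluded, which differs from the label non-diabetic. A difference in diabetic state between FGF1 and vehicle mice can therefore not be told apart from treatment on Days 1 and 42. The source name of the samples also mentions FGF19, and the treatment labels give FGF1 or vehicle only.

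Library totals ran from 1243280 counts in 1 FGF1 mouse of Day 1 to 47082403 in another, and were 7579695 to 30009258 on Day 5 and 19416026 to 43934003 on Day 42. Libraries of each day carried a single preparation code that differed between the days, so that a difference between days and one between preparations cannot be told apart, whereas each comparison of FGF1 with vehicle lay within 1 code. In the mice of Day 1 the summed levels of neuron markers were 3506 to 5942 and those of astrocyte markers 4457 to 5920 normalized counts scaled to library size (CPM), as a check of the labelled brain tissue. In these bulk samples, fewer cells of a type and less RNA per cell cannot be told apart.

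On Day 1 the ribosome biogenesis genes were mostly higher in FGF1 than in vehicle mice. By edgeR, 14 of 58 passed both thresholds, an adjusted p below 0.05 and a log2 fold change beyond 0.5 in either direction, and all 14 were higher, against 11.5% of all 14221 genes called higher and 8.05% called lower. With the threshold on adjusted p alone, 41 were higher and 1 was lower, against 23.4% and 21.6% of all genes. After all libraries were thinned to the lowest total, 18 were higher on adjusted p and 1 lower, against 10.6% and 13% of all genes. The median log2 fold change of the 58 genes was 0.32, and that of all genes was 0.01. In 53 of the 58 the estimate was above 0, as it was in 50.8% of all genes. The lowest estimate was -0.31, for Riok1, and the highest was 1.07, for Bysl.

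**Figure D1:**
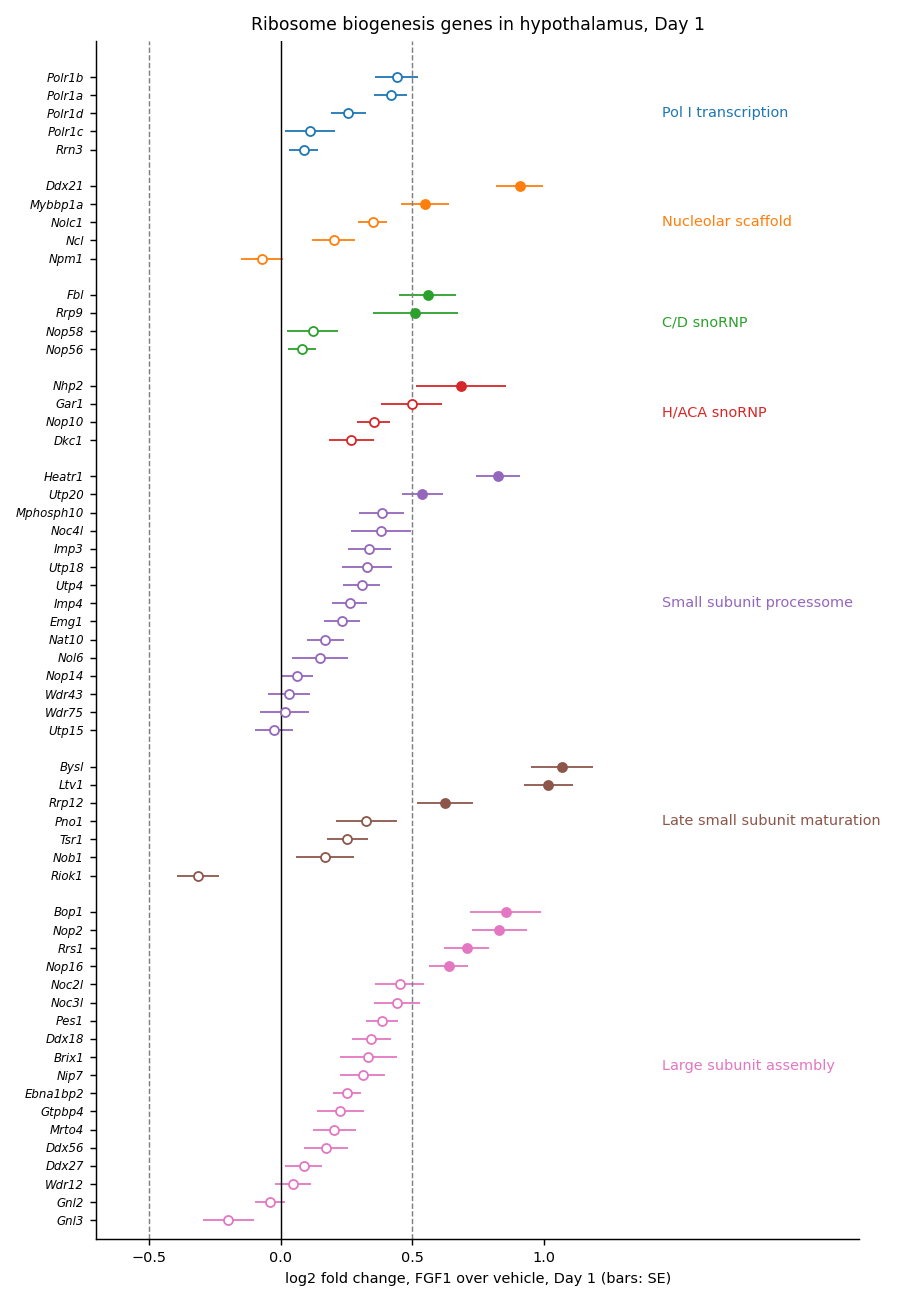
Log2 fold change (FGF1 over vehicle) of each of the 58 ribosome biogenesis genes on Day 1, in 10 FGF1 and 4 vehicle mice, grouped by role class. Points are the edgeR estimates and bars their standard errors, filled points passed both thresholds, and dashed lines mark an absolute log2 fold change of 0.5. Filled points appear to the right of 0 in every class except the Pol I class, and Riok1 and Gnl3 lie furthest to the left.

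The summed level of the 58 genes was lowest at 3554, with a median of 3983 and a highest value of 4123 CPM in the 10 FGF1 mice of Day 1. In the 4 vehicle mice it was 3234 to 3519. The 2 groups did not overlap, although the lowest FGF1 mouse, replicate 22, lay close to vehicle replicate 28. Without replicate 22, 15 genes passed on Day 1, and without vehicle replicate 28, 11 did.

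**Figure D2:**
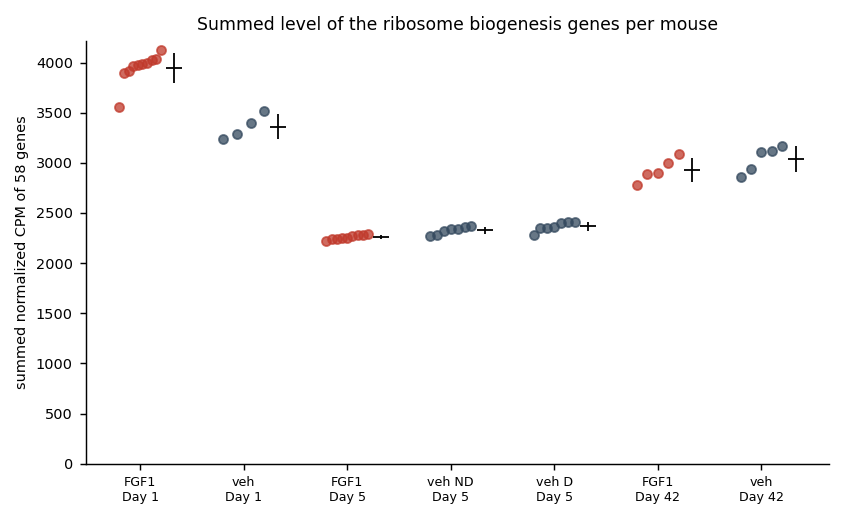
Summed normalized CPM of the 58 genes in each of the 47 mice, by group, with the mean and SD beside the points (red, FGF1; dark, vehicle; ND, non-diabetic; D, diabetic). On Day 1 all FGF1 mice lie above all vehicle mice, and on Days 5 and 42 the groups of a day overlap.

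Bysl, a factor for the last steps of small subunit maturation, had the largest change. The gene lies at chr17:47599331-47611492 on the minus strand (GRCm38, GENCODE M21, as for all gene positions given here). Its level was 11.6, 8.55, 16.1 and 16.7 CPM in the 4 vehicle mice, and between 22.7 and 33.3 CPM, with a median of 27.6, in the FGF1 mice. The groups did not overlap. The log2 fold change was 1.07 ± 0.12 (SE), with an edgeR adjusted p of 3.18e-10 and an exact permutation p of 0.000999, the smallest that 10 against 4 mice allow. Exons of Bysl overlap those of Ccnd3 on the opposite strand by 361 bases, and Ccnd3, a D-type cyclin, was itself higher by a log2 fold change of 0.73. Since the strand setting of the counting is not stated in the sources used here, reads of the overlap cannot be assigned.

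Ltv1, which is needed for nuclear export and final maturation of the small subunit, lies at chr10:13178140-13193168 on the minus strand. It was 15.1, 16.49, 18.01 and 17.89 CPM in vehicle mice. In FGF1 mice it lay between 24.95 and 38.7 CPM, with a median of 34.7. Its log2 fold change was 1.02 ± 0.09, with an adjusted p of 1.68e-12, and no overlapping gene or near-identical copy was found for it. The lowest FGF1 mouse for this gene, replicate 22, lay well below the other FGF1 mice and still above all vehicle mice. Rrp12, which acts in export of the pre-subunits, passed with a log2 fold change of 0.63 ± 0.11, which was 0.49 and under the threshold without vehicle replicate 28.

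Riok1, a kinase of the same late small subunit class, went the other way. It was 42.8, 51.9, 40.7 and 39.5 CPM in vehicle mice and between 30.2 and 39.8 CPM, with a median of 36.3, in FGF1 mice. The log2 fold change of -0.31 ± 0.08 had an adjusted p of 0.00118 (edgeR) but stayed under the threshold of size. It did not pass on adjusted p in the 2 alternatives that thinned libraries with the shallowest left out (adjusted p up to 0.0581, edgeR), and the groups overlapped between 39.5 and 39.8 CPM. In all classes, counts are to be read against the 11.5% of all genes called higher and the 23.4% higher on adjusted p alone. Of the 7 measured genes of this class, 3 passed higher (Bysl, Ltv1, Rrp12), and adjusted p alone was under 0.05 for 5 higher and for Riok1 lower. Nob1, the endonuclease that makes the last cut of the small subunit RNA, had a log2 fold change of 0.17 (adjusted p 0.206, edgeR).

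Ddx21, a nucleolar RNA helicase that works with Pol I and with snoRNAs, is encoded at chr10:62580251-62602281 on the minus strand and had levels of 35.2, 47.5, 45.7 and 40.5 CPM in vehicle mice. In FGF1 mice the lowest was 59.7, the median 78.7 and the highest 97.6 CPM. No FGF1 mouse lay within the vehicle range, and the log2 fold change was 0.91 ± 0.09 (adjusted p 1.65e-11, edgeR). Mybbp1a, a nucleolar protein named for its binding to Myb, passed with 0.55 ± 0.09, which was 0.44 and under the threshold without vehicle replicate 28. Nolc1, a chaperone of snoRNPs, and Ncl, nucleolin, had log2 fold changes of 0.35 ± 0.06 and 0.20 ± 0.08 and passed on adjusted p alone. Npm1, nucleophosmin, was 288, 398, 289 and 268 CPM in vehicle mice and between 271 and 380 CPM in FGF1 mice. All FGF1 mice lay within the vehicle range, and Npm1 had a log2 fold change of -0.07 ± 0.08, which was 0.07 without vehicle replicate 28.

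**Figure D3:**
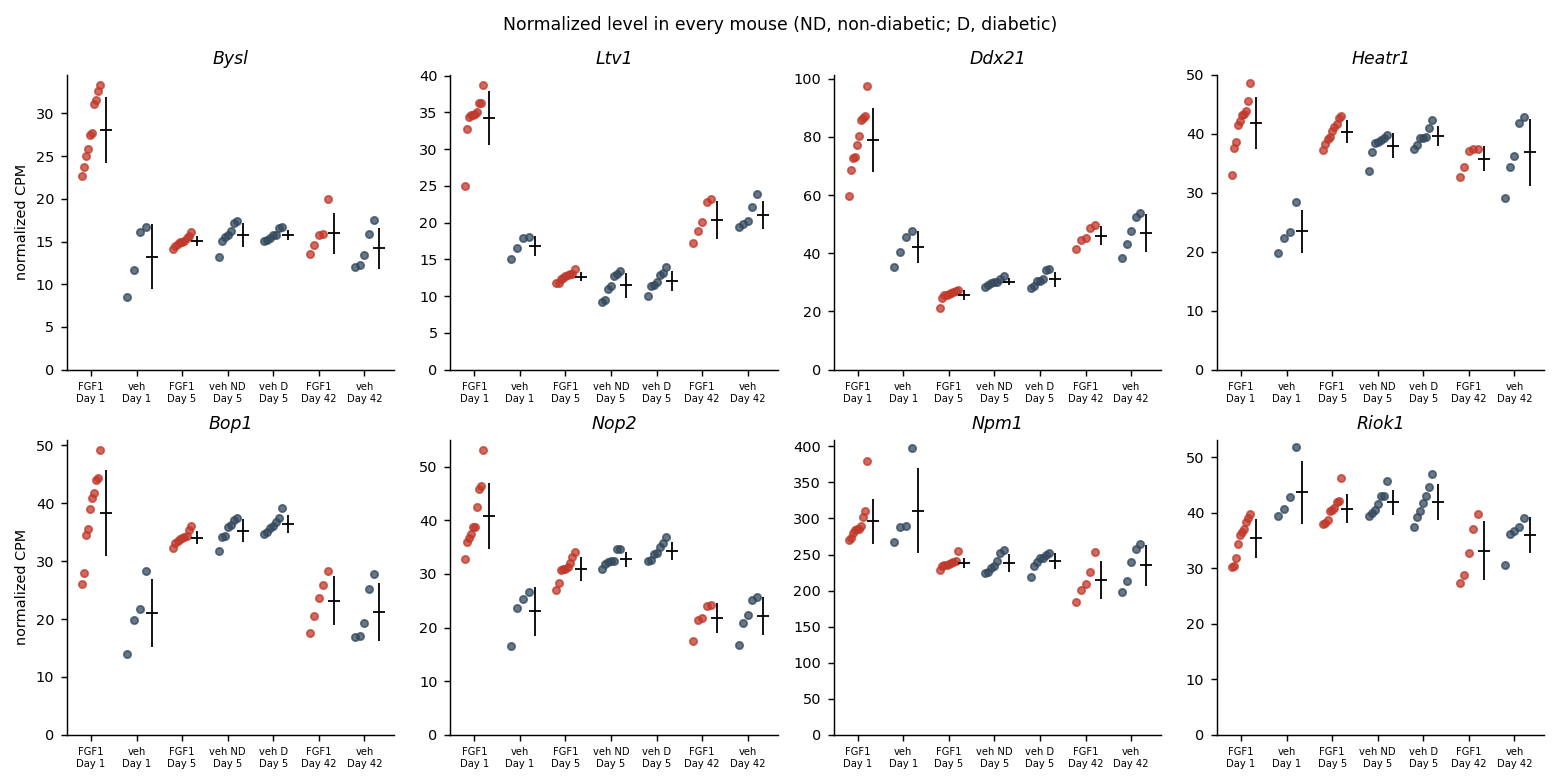
Normalized CPM of 8 genes in every mouse of the 7 groups, with mean and SD beside the points (red, FGF1; dark, vehicle; ND, non-diabetic; D, diabetic; each vertical axis starts at 0). Bysl, Ltv1, Ddx21, Heatr1 and Nop2 do not overlap between groups on Day 1, Bop1 overlaps slightly, and Npm1 and Riok1 are not higher with FGF1. Levels of different days are not comparable.

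Among the 15 genes of the small subunit processome, 2 passed, a share near the 11.5% of all genes called higher, and 10 had an adjusted p under 0.05. Heatr1, a scaffold of the processome also linked to Pol I transcription, is encoded at chr13:12395027-12440289 on the plus strand. It was 19.8, 22.3, 28.4 and 23.3 CPM in vehicle mice. It lay between 32.97 and 48.6 CPM, with a median of 42.6, in FGF1 mice, above every vehicle mouse. Its log2 fold change was 0.83 ± 0.08 (adjusted p 2.61e-11, edgeR). Its exons overlap 155 bases of Lgals8 on the opposite strand, which had a log2 fold change of -0.16. Utp20, a very large component of the processome, had 0.54 ± 0.08, which was 0.498 and under the threshold without vehicle replicate 27. Mphosph10, a partner of the U3 snoRNA, had 0.38 ± 0.08 and passed on adjusted p alone, which was lost in thinned libraries (0.10, edgeR adjusted p 0.724). Utp15 and Wdr75, both of the early subcomplex that binds the precursor first, had -0.02 ± 0.07 and 0.02 ± 0.09.

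Large subunit assembly genes, 18 in all, held 4 that passed higher, and 13 with an adjusted p under 0.05. Nop2, a methyltransferase of the large subunit RNA (chr6:125131909-125144753, plus strand), was 23.6, 16.5, 26.7 and 25.3 CPM in vehicle mice and 32.7 to 53.2 CPM, with a median of 38.8, in FGF1 mice. The 2 groups did not overlap, and the log2 fold change was 0.83 ± 0.11 (adjusted p 8.38e-09, edgeR). Bop1, which forms a complex with Pes1 and Wdr12 (chr15:76452989-76477277, minus strand for Bop1), was 21.8, 14.03, 19.8 and 28.3 CPM in vehicle mice. Its FGF1 mice lay between 26.1 and 49.2 CPM, with a median of 39.9, so that the ranges met between 26.1 and 28.3 CPM. Its log2 fold change was 0.86 ± 0.14 (exact permutation p 0.003, 2-sided). The partners differed in size, with 0.38 ± 0.06 for Pes1 and 0.05 ± 0.07 for Wdr12. Rrs1 and Nop16 passed with 0.71 ± 0.09 and 0.64 ± 0.07.

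The nucleolar GTPases of the class, Gnl2 and Gnl3 (nucleostemin), had estimates of -0.04 ± 0.06 and -0.20 ± 0.10. Gnl3 was 78.5, 115.5, 65.0 and 67.1 CPM in vehicle mice and 56.6 to 87.7 CPM in FGF1 mice, and its estimate became 0.02 without vehicle replicate 28. In that same vehicle mouse Bysl, Bop1 and Nop2 were at their lowest and Npm1, Gnl3 and Riok1 at their highest of the group.

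For the snoRNP proteins, 4 of the C/D type and 4 of the H/ACA type, 3 passed. Fbl, fibrillarin, the methyltransferase of the C/D type, was 14.6, 15.3, 14.7 and 17.1 CPM in vehicle mice and 16.8 to 29.3 CPM in FGF1 mice, which overlapped slightly, with a log2 fold change of 0.56 ± 0.11 (exact permutation p 0.003, 2-sided). Its partners Nop56 and Nop58 had 0.08 ± 0.05 and 0.12 ± 0.10. Rrp9, which binds the U3 snoRNA, had 0.51 ± 0.16 and passed in 6 of the 17 alternatives, with 0.34 without vehicle replicate 28 and 0.45 without replicate 29. Parp3 overlaps it on the opposite strand by 20 bases and was itself higher by 1.11. Nhp2, of the H/ACA type, was 11.4, 7.37, 8.35 and 12.9 CPM in vehicle mice and 12.4 to 20.1 CPM in FGF1 mice, with a log2 fold change of 0.69 ± 0.17. Gar1, at 0.498, lay just under the threshold of size, and passed in 6 of 17 alternatives, 3 with a mouse left out (vehicle replicate 27, 0.58, vehicle replicate 30, 0.51, or FGF1 replicate 22, 0.51) and 3 with thinned libraries (0.63 to 0.73). Nop10 (0.35 ± 0.06) and Dkc1 (0.27 ± 0.09), the pseudouridine synthase, passed on adjusted p alone.

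No gene of the Pol I class passed both thresholds, although 3 of 5 passed on adjusted p. Polr1b, the second largest subunit, was 25.5, 21.5, 28.2 and 27.1 CPM in vehicle mice and 29.4 to 39.2 CPM in FGF1 mice, with no overlap and a log2 fold change of 0.44 ± 0.08. Polr1a, the largest subunit, had 0.42 ± 0.06, and Polr1d, shared with Pol III, 0.26 ± 0.07, which was 0.503 and past both thresholds with all libraries thinned to the lowest total, and 0.547 when the shallowest was also left out. Rrn3, the initiation factor that recruits the polymerase, had 0.09 ± 0.06 (adjusted p 0.202, edgeR).

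Over all 58 genes, every FGF1 mouse lay above every vehicle mouse for 16 on Day 1, against 7.56% of all genes, and below for 0, against 6.81%. These 16 hold 8 of the 14 genes that passed, namely Bysl, Ltv1, Ddx21, Heatr1, Utp20, Nop2, Rrs1 and Nop16. The other 8, such as Pes1, Ebna1bp2, Nolc1 and Imp3, stayed under the threshold of size.

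Exons of 22 of the 58 genes overlap those of another gene, in all 22 on the opposite strand. Among genes that passed on Day 1 and are not named with an overlap above, Nhp2 shares 44 bases with Rmnd5b, which was itself higher by a log2 fold change of 0.54. Mybbp1a shares 131 bases with Spns2, which had -0.16, and Bop1 shares 50 bases with Mroh1, which had 0.12. Processed pseudogenes at least 95% identical over 200 or more bases were found for 11 members, namely Ddx18, Ddx21, Fbl, Imp3, Mrto4, Nop56, Npm1, Pes1, Polr1d, Tsr1 and Wdr12. None of these pseudogenes is a row of the table. Wdr12 also matched 208 bases of Ppip5k1, which is a row. How reads shared with such copies were counted is not stated in the sources used here, so the levels of these members are uncertain to that extent.

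Levels per length of exon, in CPM per kilobase in the vehicle mice of Day 1, were highest for Npm1 (117), Ncl (47.9) and Nop56 (37.3). They were lowest for Utp20 (2.62), Heatr1 (3.00) and Bysl (3.43). The median of the 58 genes was 9.45, compared with 6.15 over all genes with a length, and 45 of 58 lay above that median. The 3 genes highest by this measure did not pass on Day 1, and the 3 lowest did. Other low genes did not pass, such as Polr1a (4.23), Polr1b (4.40) and Riok1 (4.62). The vehicle mice of this measure are also those of the Day 1 fold change, so the 2 values are not independent. Of the 58 genes, 7 hold a snoRNA gene within their bounds (Ncl, Nop56, Nop58, Dkc1, Wdr43, Tsr1 and Gnl3, with 21 snoRNAs in all), a share of 12.069% against 1.827% of the genes of the table. None of these 7 passed on Day 1, where their median log2 fold change was 0.12, and for the other 51 it was 0.34. These shares describe the members, and no test of the difference was made.

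The promoter windows of the genes, 250 bases before to 50 after the start in RefSeq (GRCm38.p6), were read for short motifs, since 14 members passed higher and 0 lower on Day 1. Of the 58, 51 were matched. The E-box CACGTG, the site Myc binds, was present in 12 of the 51 (23.5%) and in 11.3% of all 11167 genes with a window, and the ETS motif CCGGAAGT on either strand in 14 of 51 (27.5%) and in 8.31%. For the GC box GGGCGG the shares were 68.6% and 67.1%, for CCAAT 37.3% and 42.7%, for the NRF1 motif 1.96% and 2.13%, and for the YY1 core AAGATGGC 1.96% and 4.76%. Genes with an E-box had a median log2 fold change of 0.33 on Day 1 (4 of 12 passed) and those without 0.27 (6 of 39 passed). The sequences below are those members whose E-box lies before the start in both annotations, to show its surroundings, with the nearer of 2 for Rrn3. The E-box is in capitals.
Imp4, chr1:34439681-34439740 on the plus strand: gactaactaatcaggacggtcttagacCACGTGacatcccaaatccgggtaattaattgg
Nop2, chr6:125131796-125131855 on the plus strand: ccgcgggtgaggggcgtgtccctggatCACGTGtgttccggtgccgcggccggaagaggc
Rrn3, chr16:13780624-13780683 on the plus strand: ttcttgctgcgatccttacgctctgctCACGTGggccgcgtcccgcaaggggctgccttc
Utp18, chr11:93885767-93885826 on the minus strand: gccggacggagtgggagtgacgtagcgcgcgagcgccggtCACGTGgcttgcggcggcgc
These E-boxes begin 121, 60, 48 and 20 bases before the RefSeq start, and the Day 1 log2 fold changes of the genes were 0.26, 0.83, 0.09 and 0.33. A match in a window is a description of its letters and not a binding site.

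On Day 5 no member passed both thresholds. Against non-diabetic vehicle mice, 0 of 58 genes passed by edgeR, compared with 1.54% of all genes, and 9 had an unadjusted p under 0.05 (16.5% of all genes). The median log2 fold change was -0.03, and 21 of 58 were above 0. Against diabetic vehicle mice, which share the FGF1 mice with the former comparison, 0 passed (2.85% of all genes), 14 had an unadjusted p under 0.05 (21.8%), and the median was -0.05. DESeq2 also gave 0 in both.

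A few members were lower with FGF1 on Day 5, by less than the threshold of size. Gnl2 had a log2 fold change of -0.17 (adjusted p 0.0399, edgeR) against non-diabetic vehicle and -0.27 (adjusted p 0.000243) against diabetic vehicle. It was 42.4 to 51.9 CPM, with a median of 46.7, in FGF1 mice, 47.2 to 56.6 CPM in non-diabetic and 49.4 to 62.3 CPM in diabetic vehicle mice. Ddx21, which was higher on Day 1, was 21.3 to 27.2 CPM with FGF1, 28.5 to 32.3 CPM in non-diabetic vehicle and 27.9 to 34.5 CPM in diabetic vehicle mice on Day 5. All FGF1 mice lay below all vehicle mice for it, with an exact permutation p of 8.74e-05 in each comparison, the smallest 9 against 7 mice allow, and adjusted p of 0.0775 and 0.0174 by edgeR. For Gnl3, FGF1 mice lay at 31.7 to 33.3 CPM and diabetic vehicle mice at 33.5 to 41.0 CPM, and it did not pass by edgeR (adjusted p 0.155). Adjusted p alone was under 0.05 and lower for 1 gene against non-diabetic vehicle (1.4% of all genes) and for 4 against diabetic vehicle (3.42%). It was higher for 0 genes in both, against 3.25% and 5.79% of all genes. These counts depended on the fit. With only the libraries of Day 5, 8 genes were lower and 2 higher against non-diabetic vehicle, where 9.13% of all genes were lower and 11.8% higher. Against diabetic vehicle that fit gave 16 lower and 2 higher, with 14.2% and 16.7% of all genes. With limma and sample quality weights the counts were 13 lower and 2 higher (11.6% and 12.5% of all genes) against non-diabetic and 17 and 1 (16.3% and 16.7%) against diabetic vehicle. More genes of the whole table were called in both fits as well. Other fits gave fewer. With at least 10 counts in every library, 0 genes were lower against non-diabetic (1.15% of all genes) and 3 against diabetic vehicle (2.83%). Without the 2 deepest FGF1 libraries of Day 5 the counts were 0 (0.774%) and 2 (2.14%). Gnl2 thus did not pass on adjusted p against non-diabetic vehicle in either of these. Every FGF1 mouse lay below every vehicle mouse for 1 gene in the first comparison (1.55% of all genes) and 4 in the second (2.45%).

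The 2 vehicle groups of Day 5 did not differ for any member by edgeR (0 of 58 passed, 0% of all genes, and 0 had an unadjusted p under 0.05, against 1.36%). Their median log2 difference, diabetic over non-diabetic, was 0.03. On Day 42, 0 of 58 genes passed, as did 0% of all genes, and 2 had an unadjusted p under 0.05 (5.46% of all genes). The median log2 fold change was -0.04 and the estimates ran from -0.21 to 0.16. The summed level of the 58 was 2777 to 3084 CPM in FGF1 and 2858 to 3167 CPM in vehicle mice, and the groups overlapped.

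**Figure D4:**
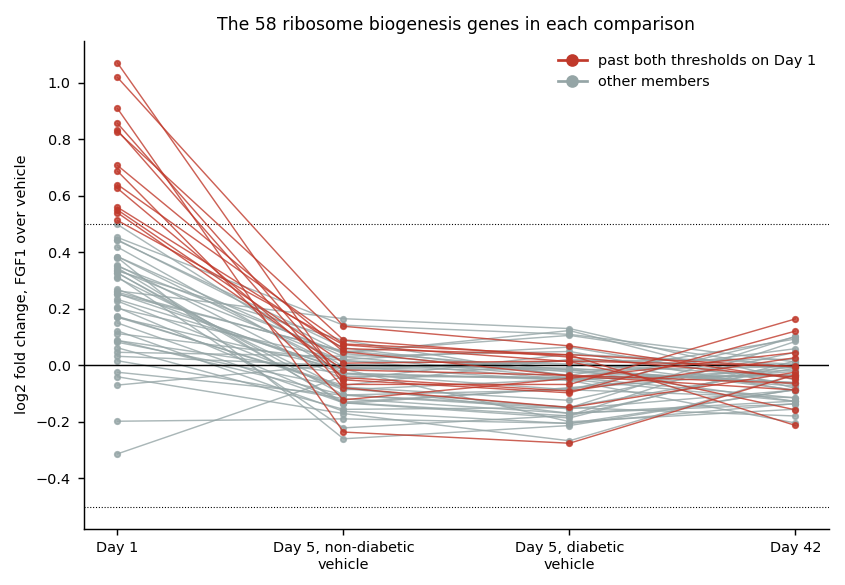
Log2 fold change of the 58 genes in the comparisons of FGF1 with vehicle on Days 1, 5 and 42, each line being 1 gene. Red lines are the 14 genes that passed both thresholds on Day 1, dotted lines mark an absolute log2 fold change of 0.5, and the 2 comparisons of Day 5 share their FGF1 mice. Lines that start high on Day 1 lie between -0.28 and 0.16 afterwards.

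The FGF1 effect differed between days when tested directly, with the non-diabetic vehicle mice as the control of Day 5. Between Days 1 and 5, 16 of 58 genes passed with a smaller effect on Day 5, and 0 with a larger one, against 8.52% and 7.28% of all genes, and 34 passed on adjusted p alone (14.2%). With the diabetic vehicle mice as that control, 15 passed with a smaller effect, and 36 on adjusted p alone (14.8%). With both vehicle groups merged these counts were 16 and 40 (16.6%). Between Days 1 and 42, 16 passed with a smaller effect (9.81% of all genes) and 0 with a larger one (6.59%), and 32 on adjusted p alone (14.3%). In libraries thinned to the lowest total, 11 passed on adjusted p between Days 1 and 5 (4.82% of all genes), and between Days 1 and 42 the count was 6 both with and without the threshold of size (3.9% of all genes without it). Both contrasts use the same Day 1 mice and span different preparation codes, and 14 genes passed in both, 13 of them among the 14 of Day 1. Gar1 passed in both differences while under the threshold on Day 1, but its difference between Days 1 and 5 (-0.504) lost the call in 13 of 19 alternatives and that between Days 1 and 42 (-0.70) in 4 of 27. Among the 13, Fbl lost the call between Days 1 and 5 (-0.501) in 13 of 19 alternatives, and Nhp2 lost it between Days 1 and 42 (-0.64, edgeR adjusted p 0.0486) in 18 of 27. Rrp9 passed on Day 1 and not between Days 1 and 5. Ddx21 differed by -1.15 between Days 1 and 5 and by -0.94 between Days 1 and 42, and Ltv1 by -0.88 and -1.07. For Bysl the differences were -1.14 and -0.91, for Nop2 -0.91 and -0.86, for Bop1 -0.91 and -0.74 and for Heatr1 -0.74 and -0.87. Between Days 5 and 42, 0 of 58 passed (0.717% of all genes).

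Further genes of the pathway were counted on Day 1 in lists that leave out the 58, to be read against the 11.5% and 8.05% of all genes given above. Of 11 other Pol I subunits and initiation factors, 2 passed higher, Tcof1 (treacle, 1.05) and Cd3eap (0.69), and 0 lower. Among 36 other small subunit factors, 6 were higher, led by Utp23 (1.12) and Nop9 (0.97). Of 42 other large subunit factors, 5 were higher and 1 lower, with Ddx54 (0.83) and Ftsj3 (0.62) the largest. The snoRNP assembly proteins gave 2 of 8 (Naf1, 0.60, and Ruvbl2, 0.57), and exosome subunits and pre-rRNA nucleases 4 of 21, with Pop1 (0.73) and Rpp40 (0.66) the largest. Of 4 host genes of snoRNAs that code for no protein, Snhg6 was higher (0.85), and Snhg18 had -0.34 without passing. Of 21 translation factors, 5 passed higher and 0 lower, with Eif4ebp1 (1.97), an inhibitor of cap-dependent translation in its unphosphorylated form, and Eif4a1 (0.73), the helicase of the initiation complex, the largest. Nucleotide synthesis gave 2 of 17, Cad (0.86) of the pyrimidine and Impdh2 (0.65) of the guanine pathway.

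**Figure D5:**
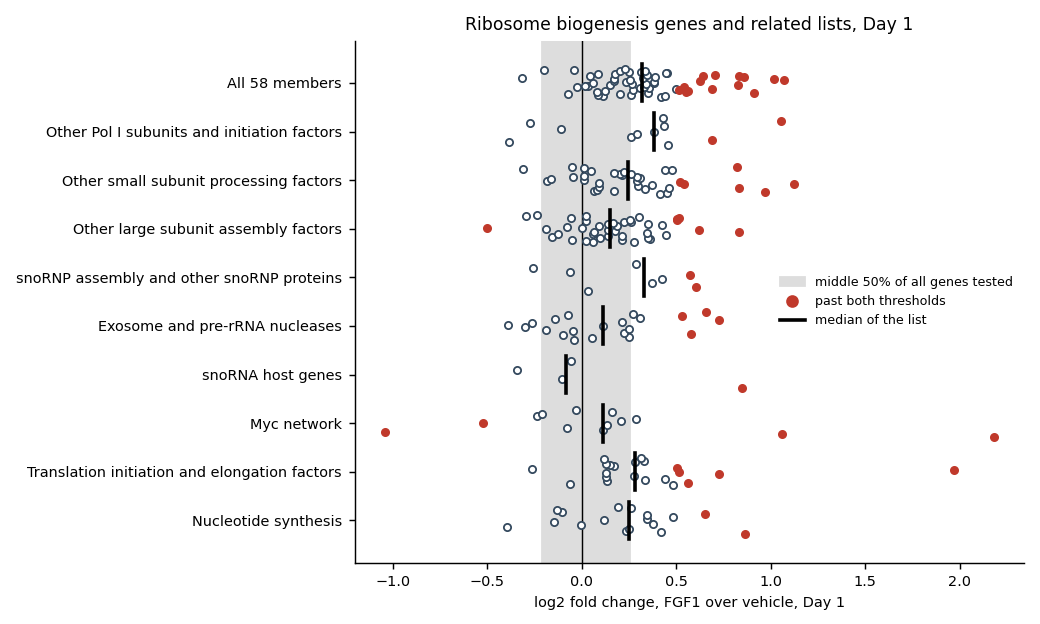
Log2 fold change on Day 1 of the 58 genes and of the genes in the related lists, each point 1 gene, filled red when it passed both thresholds, with the median of each list as a black bar and the middle of the distribution of all genes, between its quartiles, in grey. The median of the 58 is 0.32, and Myc at 2.18 is the highest point.

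In the Myc network, 2 of 13 genes passed higher and 2 lower, against 11.5% and 8.05% of all genes. Myc rose by a log2 fold change of 2.18 ± 0.20 (adjusted p 1.03e-12, edgeR), Mycn by 1.06 ± 0.21, while Mycl fell by 1.04 and Mxi1, a Max partner that opposes Myc, fell by 0.52. No member of the network passed on Day 5 against either vehicle group or on Day 42.

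Marker genes of several cell types also differed between FGF1 and vehicle mice on Day 1, and their part in the result was not tested. Counts of markers that passed are to be read against the 11.5% of all genes called higher and the 8.05% called lower. Of 10 cell cycle genes, 9 passed higher, led by Mki67 (2.90) and Mcm3 (2.31), and their summed level was 98.1 to 153 CPM with FGF1 and 64.1 to 84.6 CPM with vehicle. Tanycyte markers summed to 577 to 1023 CPM with FGF1 and 160 to 225 CPM with vehicle, with 2 of 7 higher (Nes, 3.65, and Vim, 3.31) while Col23a1 fell by 1.07. The median log2 fold change of these 7 was only 0.20. Of them, 3 had estimates below 0, and 2 were lower on adjusted p alone (21.6% of all genes). Microglia markers were 261 to 354 CPM with FGF1 and 221 to 256 CPM with vehicle, with 6 of 8 higher and 1 lower. Oligodendrocyte markers were 2241 to 4064 CPM with FGF1 and 3568 to 5225 CPM with vehicle, with 5 of 6 lower. Neuron markers were 3506 to 4530 CPM with FGF1 and 4661 to 5942 CPM with vehicle, with 0 of 8 past both thresholds. Blood-derived leukocyte markers, 4 of 4 higher, were 4.07 to 32.8 CPM with FGF1 and 6.84 to 13.9 CPM with vehicle, and ependymal markers, 3 of 5 lower, were 24.7 to 45.5 and 49.6 to 68.3 CPM. Astrocyte markers (1 of 8 higher, Gfap with 2.81, and 2 lower) were 4802 to 5920 and 4457 to 5149 CPM, and oligodendrocyte precursor markers (2 of 6 lower) 102 to 176 and 165 to 191 CPM. Although the astrocyte sum was higher, 5 of its 8 markers were lower on adjusted p alone (21.6% of all genes). The median log2 fold change of the 8 was -0.36. Of endothelial and mural markers 2 of 8 were higher and 1 lower, of meningeal fibroblast markers 2 of 7 higher and 3 lower, and of choroid plexus markers 1 of 2 lower. Marker levels also differed on Day 5, and their part there was not tested. Oligodendrocyte precursor markers were 301 to 386 CPM with FGF1, 187 to 215 CPM in non-diabetic and 183 to 206 CPM in diabetic vehicle mice. Neuron markers overlapped, at 4533 to 4972, 4839 to 5017 and 4691 to 5041 CPM.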

How the data were processed

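Bulk RNA-seq of mouse hypothalamus was analysed, with 1 library for each of 47 mice. Reads were aligned by the authors with STAR to a genome named in the methods as Grch38, although the samples are mouse, and the deposited counts per gene are whole numbers with no normalization. A counting program, its strand setting and a filter on genes are not given in the sources used here. Each library of Day 5 had 0 to 2 genes without counts, and each of Days 1 and 42 had 78 to 539. How the genes of the table were chosen is thus unknown, and shares of all genes refer to this table only. Libraries came from a strand-specific kit, and the sample sheet holds a preparation code that is the same for all mice of a day. No coordinates are in the table, so those printed, together with gene overlaps, exon lengths and snoRNA genes, were taken from GENCODE M21 (GRCm38) by symbol, and promoter windows from RefSeq (GRCm38.p6). All 58 members had a symbol in both the table and GENCODE.

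Counts were scaled by TMM and fitted with edgeR 4.0.16 under R 4.3.3, with 1 mean for each of 7 groups. Genes were tested by the quasi-likelihood F test, with Benjamini-Hochberg adjustment of the p-values of each contrast across the 14221 genes, none of which was removed by the filter on low counts. A gene passed at an adjusted p below 0.05 with a log2 fold change beyond 0.5 in either direction, the thresholds of the study. Levels are CPM scaled by TMM, and single genes were compared by 2-sided exact permutation tests on log2(CPM + 0.5). In simulated counts for Day 1 on 14221 genes, edgeR recovered 99% of 200 genes changed by 1.5 on the log2 scale. That change exceeds the largest of any member on Day 1 (1.07). Recovery of changes near or below 0.5 was not measured. The shallowest library gives few reads for a gene at 10 CPM or less. Alternatives were DESeq2 1.42.0, limma 3.58.1, other size factors and filters, thinned libraries and libraries left out. Members, lists, motifs and the rule for named genes were chosen with earlier results of these data known. Named genes are, in each role class, the 3 largest and the smallest log2 fold changes on Day 1, all members below 0, and the 3 highest and 3 lowest levels per length, and in each other list the 2 largest. Other members named were chosen after their values were seen. P-values measure the spread between mice, 1 sample each.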

Additional observations from a re-analysis of the deposited data

Results flagged for a closer look

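In groups of 4 to 10 mice, a mouse whose gap to its nearest neighbour is large against the range of the group is named here, and 9 of 91 groups tested held one, where chance gives about 1 in 20. In FGF1 mice of Day 1, replicate 22 had the lowest summed level of the 58 genes, 3554 CPM, with the next at 3891 CPM, and the lowest Ltv1 level, 24.95 CPM, with the next at 32.8 CPM. Npm1 was highest in FGF1 replicate 26 of Day 1 (379.6 CPM, next 309.7), in vehicle replicate 28 of Day 1 (398.4 CPM, next 289.3) and in FGF1 replicate 1 of Day 5 (255.0 CPM, next 241.1). Ddx21 was lowest in FGF1 replicate 4 of Day 5 (21.3 CPM, next 24.6), and Riok1 was highest in FGF1 replicate 5 of Day 5 (46.2 CPM, next 42.2). In FGF1 replicate 11 of Day 42, Nhp2 was highest (16.4 CPM, next 11.2) and Polr1b lowest (21.3 CPM, next 24.5).

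The FGF1 effect of Day 1 differed from that of a later day for 16 genes on Day 5 and for 16 on Day 42 by edgeR. The genes with the largest Day 1 change had differences, Day 5 minus Day 1, of -1.14 for Bysl, -0.88 for Ltv1, -1.15 for Ddx21, -0.91 for Bop1, -0.91 for Nop2 and -0.74 for Heatr1. The differences of Day 42 minus Day 1 were -0.91 for Bysl, -1.07 for Ltv1, -0.94 for Ddx21, -0.74 for Bop1, -0.86 for Nop2 and -0.87 for Heatr1.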

How the results depend on the processing

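No paired analysis was possible because the numbers in the sample titles name single mice and none is shared by groups; the titles of Day 5 give no replicate number, and those used here for Day 5 follow accession order and pair nothing. The count of 14 genes that passed on Day 1 was 11 to 16 with 1 mouse left out (each of the 4 vehicle mice, and of the 10 FGF1 mice replicates 17 and 22 alone) and 11 to 14 under the other alternatives that keep the fold threshold, and without it was 42. Without the fold threshold the counts were 1 on Day 5 against non-diabetic and 4 against diabetic vehicle, 34 for the difference of Days 1 and 5 and 32 for that of Days 1 and 42. Thinning all libraries to the lowest total, with or without the shallowest one, gave 1 on Day 5 against non-diabetic vehicle and 6 for the difference of Days 1 and 42; fewer counts remain by construction, and the cause was not tested further. On adjusted p alone, thinning gave 18 higher on Day 1 (19 without the shallowest), 11 and 13 for the difference of Days 1 and 5 and 6 and 6 for that of Days 1 and 42, which was 15 with only the libraries of those days. With 1 of the same 6 mice left out, the difference of Days 1 and 5 gave 13 to 17, and with 1 of these or of the 10 mice of Day 42 left out that of Days 1 and 42 gave 12 to 17. With each mouse of Day 42 left out, the counts for Day 42 and for the difference of Days 5 and 42 were 0 to 0. No mouse of Day 5 was left out singly. The median of 0.32 was 0.271 with DESeq2 size factors, 0.259 after thinning and 0.238 with quantile normalization. Among all genes called between Days 1 and 42, 40.2% were higher, and 50.5% with DESeq2 size factors, where 13 members were lower and 0 higher. Of genes named, Rrp9 kept its call on Day 1 in 6 of 17 alternatives, Utp20 in 10, Fbl in 14, Mybbp1a in 15 and Rrp12 in 16, while Bysl, Ltv1, Ddx21, Bop1, Nop2, Heatr1, Rrs1 and Nhp2 kept it in all 17. The filter on low counts removed no gene. The alternative without it therefore repeats the main fit, and it is counted in all such totals. Over all values of single named genes, 1037 kept their side of the thresholds, 115 lost and 8 gained a call. Those that gained it were Gar1 on Day 1 in 6 (0.51 to 0.73) and Polr1d on Day 1 in 2 (0.503 and 0.547, thinned with and without the shallowest library). Values that changed sign on Day 1, none of which had passed, given with the other end of their range over mice left out, were Gnl3 (0.0176 without vehicle replicate 28, down to -0.293 without 29), Npm1 (0.0710 without vehicle replicate 28, down to -0.135 without 30, and -0.136 when thinned), Utp15 (0.00981 without FGF1 replicate 22, down to -0.0414 without vehicle replicate 27, and -0.114 when thinned), Rrn3 (-0.000682) when thinned, and Wdr75 (-0.0328 with DESeq2, -0.0324 with its size factors, -0.0116 with quantile normalization, -0.0519 and -0.0630 without vehicle replicates 27 and 30, up to 0.127 without 28). Leaving out FGF1 replicate 22 and thinning without the shallowest library to the next lowest total were chosen after seeing the data. The pseudocount did not change the permutation calls.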
